A study of Mus musculus with 2 samples.

Results

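EC 2 is 229 of the 5451 cells of a single-cell map of the normal mouse aorta. Its members are the cells that the authors' deposited annotation names EC 2, 1 of 3 endothelial populations among 10 populations. EC 2 held 56 of 2260 cells in library 1 and 173 of 3191 cells in library 2, which is 2.48% (exact 95% binomial interval 1.88 to 3.21) and 5.42% (4.66 to 6.26), or 3.95% ± 2.08 (SD, n = 2 libraries). Among endothelial cells alone EC 2 made up 23.5% (18.3 to 29.4) and 33.9% (29.8 to 38.2). The intervals of the libraries do not overlap in either denominator, and they cover counting error only. Below, EC 2 is set against each of the other 9 populations: the endothelial EC 1 (425 cells) and EC 3 (94), the smooth muscle cells VSMC (2159), the fibroblasts Fibro 1 (1147) and Fibro 2 (634), Mono 1 (443), Mono 2 (109), Macro (167) and Neuron (44). These are the authors' names.

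All cells came from 1 group of wild-type C57/BL6 female mice aged 12 weeks, fed chow, with no treated or mutant group among the samples. The study's arm on Western diet is not analysed here. The aortas were taken from the root to the femoral bifurcation, perivascular fat was dissected off, the tissue was digested with collagenase, hyaluronidase and DNase, and red blood cells were lysed. Droplet libraries (10x v2) counted unique molecular identifiers (UMIs), which tag single captured RNA molecules. Levels are given in CPM, the UMIs of a gene scaled to all UMIs of a population within a library, as library 1 and library 2. The replicates are 2 libraries, so p-values measure the spread between these libraries and across populations.

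The table held 30588237 UMIs, 11104066 and 19484171 by library. EC 2 contributed 168943 and 595665 of them, with a median of 2394 and 2790 UMIs per cell, below the medians of EC 1 (4010), EC 3 (4139) and VSMC (6025) over both libraries. Cell barcodes found in both libraries numbered 12, of which 2 belonged to EC 2 cells and none to an EC 2 cell in both. A doublet caller marked 5 EC 2 cells in library 1 (8.93%) and 3 in library 2 (1.73%), of 84 marked cells in all. Over all cells the marked shares were lower, at 2.57% in library 1 and 0.81% in library 2.

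Capillary endothelium in fat, heart and skeletal muscle takes up fatty acids from triglyceride-rich lipoproteins. GPIHBP1 carries lipoprotein lipase across the endothelial cell and anchors it at the luminal face, CD36 takes up the fatty acids that the lipase releases, and FABP4 and FABP5 bind them in the cytosol. The nuclear receptor PPARγ and the transcription factor pair MEOX2 and TCF15 are known regulators of these genes in capillaries. The large-vessel endothelium that lines the aorta is in contrast marked by genes of the arterial programme and of haemostasis.

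Of the 5 genes used to recognise EC 2, RefSeq promoter windows (build GRCm38.p6) were matched by symbol for 3. Their 250 bases before the start are printed because these genes were higher in EC 2 than in every other population. Capitals mark a match, on either strand, to AGGTCA, the core motif bound by nuclear receptors such as PPARγ, or to CCGGAA, the core motif of ETS factors.
Cd36, chr5:17835897-17836146 (minus strand): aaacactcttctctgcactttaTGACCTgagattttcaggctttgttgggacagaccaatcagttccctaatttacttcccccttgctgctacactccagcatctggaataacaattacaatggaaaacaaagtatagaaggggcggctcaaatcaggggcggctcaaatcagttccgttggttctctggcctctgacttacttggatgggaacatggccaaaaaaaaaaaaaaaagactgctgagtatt
Rgcc, chr14:79301636-79301885 (minus strand): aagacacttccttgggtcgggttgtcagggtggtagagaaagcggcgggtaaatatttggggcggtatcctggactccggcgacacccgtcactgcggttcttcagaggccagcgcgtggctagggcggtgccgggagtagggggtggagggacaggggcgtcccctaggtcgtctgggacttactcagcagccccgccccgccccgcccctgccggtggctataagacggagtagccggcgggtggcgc
Car4, chr11:84957504-84957753 (plus strand): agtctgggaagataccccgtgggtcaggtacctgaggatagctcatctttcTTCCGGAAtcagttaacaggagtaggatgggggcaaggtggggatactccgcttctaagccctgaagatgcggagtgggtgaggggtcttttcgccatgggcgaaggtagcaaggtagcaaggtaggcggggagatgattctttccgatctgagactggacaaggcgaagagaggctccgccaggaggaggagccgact
The Cd36 window held 1 match to AGGTCA, the Car4 window held 2 overlapping matches to CCGGAA, and the Rgcc window held neither. Of all 32851 windows of this length, 14.02% held AGGTCA and 12.03% held CCGGAA. Among the 149 windows of 104 matched genes that were higher in EC 2 than in every other population (142 genes, described below), the shares were 17.45% and 10.07%. These matches describe letters in a window and not bound sites.

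The 5 marker genes were all highest in EC 2, in both libraries. Cdh5 encodes VE-cadherin, the adhesion protein of endothelial junctions, and stood at 941 and 1096 CPM in EC 2 against 406 and 372 in EC 1, the next highest population. Gpihbp1 stood at 2829 and 4278 CPM, with EC 3 next at 551 and 361 and EC 1 at 11.5 and 10.0. Cd36 stood at 2954 and 4202 CPM in EC 2 and at 549 and 690.5 in Mono 1, the population that came next. For none of these genes did a library of another population reach the lower library of EC 2. Rgcc, a cell cycle regulator enriched in capillaries, stood at 2705 and 3776 CPM, with 92.3 and 363 in Neuron. Car4, the membrane-bound carbonic anhydrase of capillaries, stood at 687 and 972 CPM, while no other population passed 7.08. The 5 genes chosen as markers of EC 2 were thus present together. These genes were among those that defined the cluster, and their levels by the authors' names are a description.

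Most single cells of EC 2 carried these transcripts. After each cell was thinned to 1300 UMIs, which left out no cell, a Gpihbp1 UMI was seen in 96.5% of EC 2 cells, a Cd36 UMI in 96.9%, an Rgcc UMI in 95.2%, a Cdh5 UMI in 77.3% and a Car4 UMI in 60.7%. The same shares in VSMC, which should lack these genes and so gauge free RNA in the droplets, were 1.48%, 1.81%, 1.76%, 0.509% and 0.0463%. Without thinning, the EC 2 shares were 100% for Gpihbp1 and Cd36, 99.1% for Rgcc, 96.1% for Cdh5 and 81.2% for Car4.

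**Figure D1:**
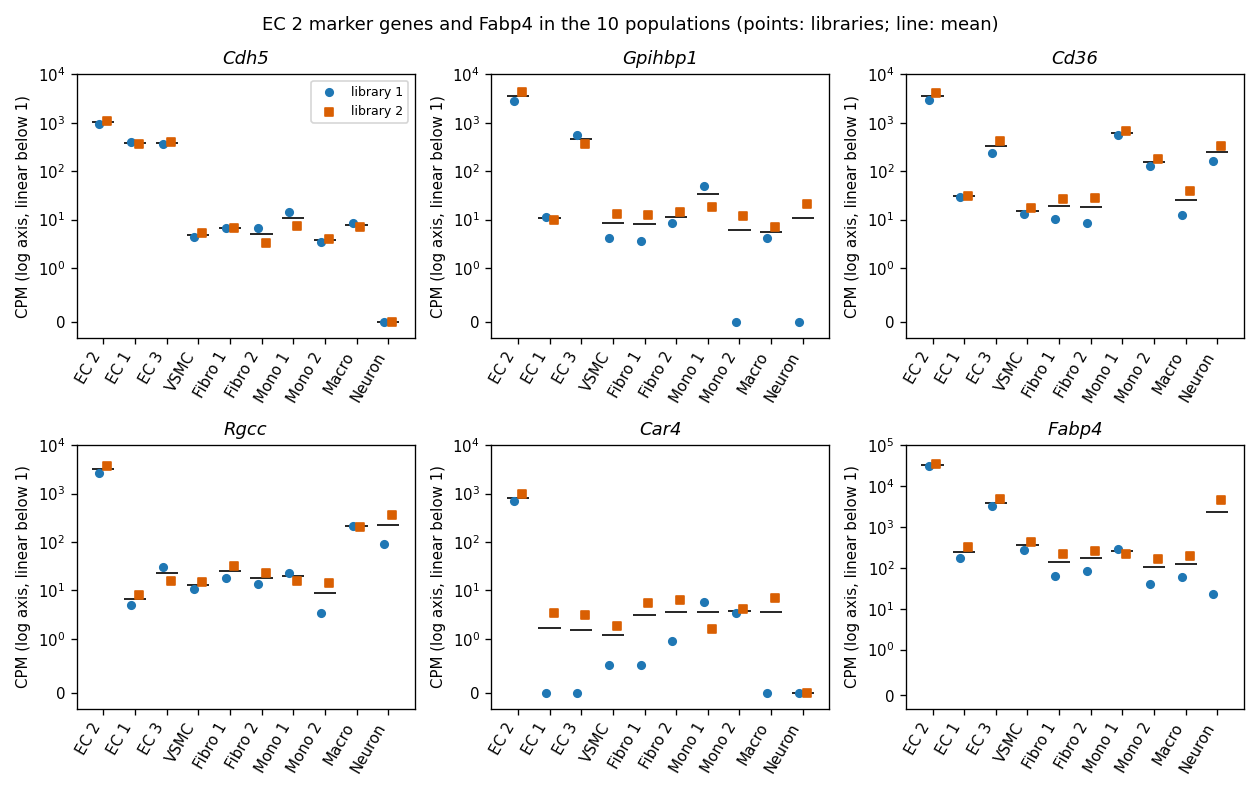
Levels of the 5 marker genes and Fabp4 in the 10 populations, in CPM on an axis that is logarithmic above 1 and linear below, with a point for each library and a line at their mean. EC 2 is highest in both libraries for each gene, with Car4 at 687 and 972 CPM in EC 2 and at most 7.08 elsewhere.

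To test EC 2 without reusing the UMIs that define it, each UMI was assigned at random with probability 0.5 to one of 2 portions. All cells were clustered anew on the first portion, each cluster took the authors' most frequent name among its cells, and the other, held-out portion was tested. The cells so named EC 2 numbered 224, of which 222 were also EC 2 by the authors' names (96.94% of the 229). Held-out UMIs were summed per population and library and compared with edgeR's quasi-likelihood test, with population and library as terms, over 7917 genes. A gene is called where its Benjamini-Hochberg adjusted p is under 0.05, and log2 folds are given as EC 2 over the other population ± SE. Where a population held 0 UMIs of a gene, the fold is a lower bound computed from all UMIs against 3 counts over that population, and where it held 1 to 3 the ratio is given with its counting interval. Calls were recomputed under alternatives of the processing, and a gene that lost its call in at least 3 of them, or lost its direction in a library, is given with that limit. Genes of lists beyond the rule for naming were chosen after their values were seen.

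Against the mean of the other 9 populations, 1167 genes were called higher in EC 2 (14.7% of those tested) and 355 lower (4.48%). Of the genes tested, 142 were called higher in EC 2 than in each of the 9 other populations (1.79%), and 1 was called lower than in each (0.0126%). By the authors' names, the ratio of EC 2 to the next highest population over these genes ran from 1.34 to 257, with a median of 2.96. The gene lower than in each was S100a6, a calcium-binding protein, at 675 and 405 CPM in EC 2 against 4052 and 3708 in Fibro 2, where it was highest.

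The 15 genes with the largest smallest fold over the 9 populations included transporters, secreted proteins and genes of lipid metabolism. Aqp7, the glycerol channel, stood at 675 and 759 CPM in EC 2 and at 7.76 and 3.08 in EC 3, next in order, a ratio of 132. C1qtnf9, an adiponectin-related secreted protein, stood at 758 and 693 CPM against 7.76 and 18.5 in EC 3. Timp4, an inhibitor of matrix metalloproteinases, stood at 1504 and 1544 CPM, and Neuron, which holds 12 cells in library 1, came next at 0 and 363. In every library these genes were higher in EC 2 than in any other population. Thrsp, a regulator of lipid synthesis, stood at 580.1 and 730.3 CPM against 0 and 85.4 in Neuron. Kcna5, a voltage-gated potassium channel, stood at 249 and 272 CPM against 0 and 32.0 in Neuron. Tmem182 stood at 148 and 102 CPM and was at least 78.8-fold higher than in EC 1 and at least 17.0-fold higher than in EC 3, and its call over every other population was kept in 7 of 11 alternatives. The others were Gm12002, Ccdc85a, Slc26a10, Car4, Rgcc, 8430408G22Rik (an older symbol of Depp1), Cxcl9, Rsad2 and Ucp1.

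**Figure D2:**
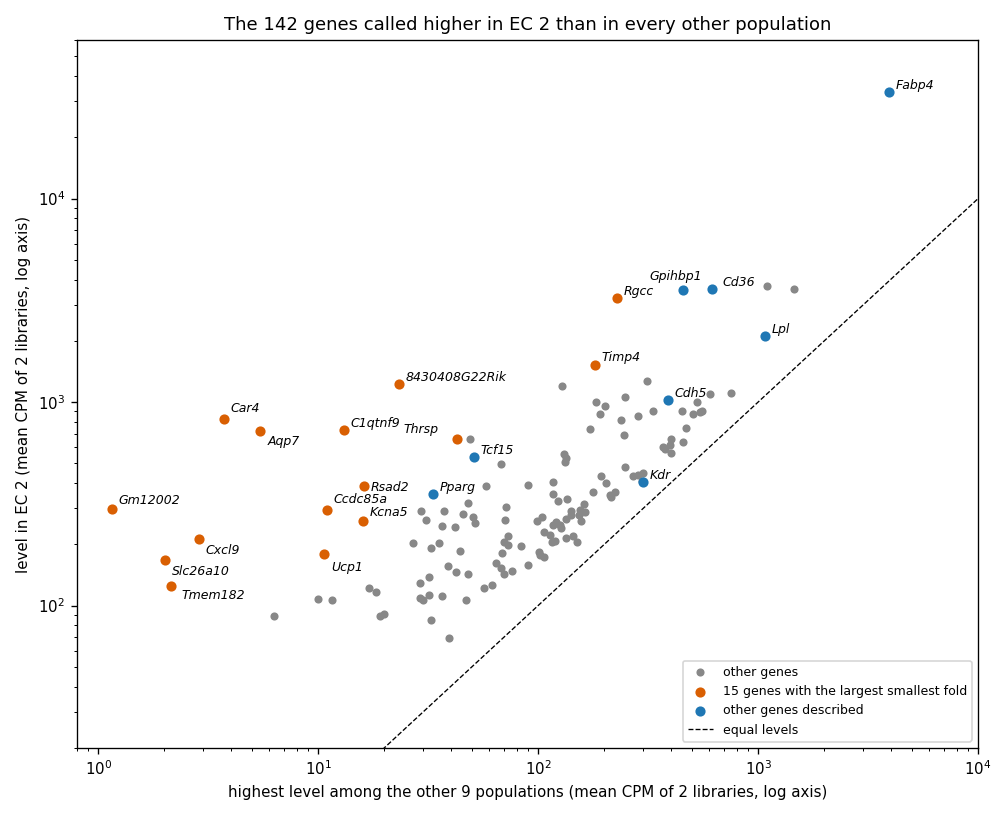
The 142 genes called higher in EC 2 than in every other population, plotted by the level in EC 2 against the highest level among the other 9 (mean CPM of the 2 libraries, log axes). The dashed line marks equal levels and all genes lie above it, with Fabp4 at the top and the 15 genes of the largest smallest fold, in orange, mostly at the left.

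Among proteins that act on lipoproteins and take up lipid, EC 2 was high in the lipase, its anchor and 2 uptake receptors. Against EC 1, where 8.78% of all genes tested were called higher and 9.99% lower in EC 2, this list had 5 of 11 higher and 1 lower (median log2 fold 0.83). Against EC 3, where 5.29% of all genes were higher and 5.32% lower, it had 4 of 11 higher and 0 lower (median log2 fold 1.06). The median over all genes was -0.01 against EC 1 and 0.03 against EC 3. The list includes the markers Gpihbp1 and Cd36, so its counts are not independent of the choice of EC 2. Gpihbp1 was higher by 8.95 ± 0.40 (adjusted p = 8.53e-31) than in EC 1 and by 3.22 ± 0.28 (adjusted p = 1.37e-15) than in EC 3. Lpl, lipoprotein lipase itself, stood at 1539 and 2676 CPM in EC 2, with 924 and 1235 in Mono 2, and was higher by 7.23 ± 0.31 than in EC 1 and 4.52 ± 0.29 than in EC 3. Cd36 was higher by 7.01 ± 0.27 and 3.48 ± 0.23. Scarb1, the HDL receptor SR-BI, stood at 231 and 351 CPM against 30.6 and 28.2 in Mono 2 and was called higher than in every other population, as were Gpihbp1 and Cd36. Lpl was called so too, but in only 4 of 11 alternatives. Angptl4, a secreted inhibitor of lipoprotein lipase, stood at 183 and 156 CPM and was higher than in EC 1 by 4.21 ± 0.46, while its fold over EC 3, 1.06 ± 0.41, was not called (adjusted p = 0.0858). The member called lower than in EC 1 was Apoe, at 1521 and 1377 CPM against 5963 and 5918 (-2.31 ± 0.22).

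Fabp4 was the list member of fatty acid binding that set EC 2 apart most. It stood at 30951 and 35663 CPM in EC 2, at 3167 and 4698 in EC 3 and at 178 and 319.5 in EC 1. The libraries of EC 2 lay far above those of all other populations, with log2 folds of 7.0 ± 0.29 (adjusted p = 1.58e-32) over EC 1 and 3.28 ± 0.24 (adjusted p = 1.13e-18) over EC 3. Fabp5 stood at 829 and 1178 CPM against 185 and 182 in Neuron, and its folds were 3.94 ± 0.22 and 2.67 ± 0.26. Fabp3, the heart and muscle form, was lower in level at 35.5 and 99.0 CPM and still called higher than in EC 1 (4.70 ± 0.68) and EC 3 (2.84 ± 0.77). The acyl-CoA synthetase Acsl1 was also called higher than in both, by 3.65 ± 0.61 and 2.09 ± 0.70 (the latter called in 4 of 11 alternatives), as was the acyl-CoA binding protein Dbi, by 0.91 ± 0.26 and 1.12 ± 0.32. Without the EC 2 cells that held an adipocyte UMI, described below, the fold of Dbi over EC 1 was -0.16 and not called. In that setting the fold of Fabp3 over EC 3 was 2.13, also not called. The list as a whole had 5 of 8 higher and 0 lower (median log2 fold 2.28) against EC 1 and 5 of 8 higher and 0 lower (median log2 fold 1.67) against EC 3. The fatty acid transport protein Slc27a1 held 2 UMIs in EC 2 and was not called in either comparison. A Fabp4 UMI was found in 100% of thinned EC 2 cells but also in 33.6% of VSMC, so its presence in a single cell separates EC 2 less well than that of Gpihbp1.

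Enzymes that release stored fatty acids were high in EC 2. Mgll, which cleaves monoglycerides, stood at 941 and 1187 CPM against 287 and 209.6 in EC 3 and was higher by 4.12 ± 0.21 than in EC 1 and 2.70 ± 0.24 than in EC 3. Pnpla2, adipose triglyceride lipase, stood at 225 and 581 CPM against 90.7 and 142 in EC 1, with folds of 1.77 ± 0.21 and 3.24 ± 0.35. Lipe, hormone-sensitive lipase, stood at 130.2 and 181 CPM against 46.2 and 32.0 in Neuron, with folds of 3.06 ± 0.43 and 2.14 ± 0.52. All 3 lipases were called higher than in every other population. Plin2, a lipid droplet coat protein, was higher than in both other endothelial populations (2.72 ± 0.27 and 3.83 ± 0.47), but in Mono 1 it reached 246 and 231 CPM against 302 and 232 in EC 2. The β-oxidation enzymes moved less: Acadm and Hadhb were called higher than in EC 1, by 1.45 ± 0.30 and 1.37 ± 0.26, and neither was called against EC 3. Without the EC 2 cells that held an adipocyte UMI, their folds over EC 1 were 0.795 and 0.602, neither called. Cpt1a, which admits fatty acids to the mitochondrion, stood at 29.6 and 13.4 CPM and was not called against EC 1 (-1.26 ± 0.56) or EC 3 (-1.45 ± 0.69). Storage and oxidation genes together had 7 of 14 higher and 0 lower (median log2 fold 1.01) against EC 1 and 4 of 14 higher and 0 lower (median log2 fold 1.11) against EC 3.

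The transcription factors known to drive fatty acid uptake in capillaries were present. Pparg stood at 373 and 332 CPM in EC 2, 54.3 and 12.3 in EC 3 and 1.65 and 0.668 in EC 1. Against EC 1, which held 2 Pparg UMIs, the ratio was 359-fold higher, 95% counting interval of 98.4 to 2979, and over EC 3 the log2 fold was 3.79 ± 0.52 (adjusted p = 2.83e-08). Tcf15 stood at 485 and 586 CPM against 31.1 and 70.9 in EC 3, with log2 folds of 7.32 ± 0.43 over EC 1 and 2.92 ± 0.34 over EC 3. Both genes were called higher than in every other population. Its partner Meox2 stood at 243 and 151 CPM and was higher than in EC 1 by 6.12 ± 0.59, but its fold over EC 3, 0.79 ± 0.39, was not called (adjusted p = 0.23). Nr1h3, the liver X receptor α, was called higher than in EC 1 (1.80 ± 0.67, called in 5 of 11 alternatives) at 35.5 and 31.9 CPM. Ppard was not called against EC 1 or EC 3, and Ppara held 1 UMI in EC 2. The list had 4 of 5 higher and 0 lower (median log2 fold 6.12) against EC 1 and 2 of 5 higher and 0 lower (median log2 fold 0.79) against EC 3.

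Adipocyte-associated transcripts were found in EC 2 cells, although perivascular fat had been dissected off before digestion. Ucp1, the uncoupling protein of brown fat, stood at 71.0 and 287 CPM in EC 2, with 0 and 21.4 in Neuron, and Cox8b, a cytochrome oxidase subunit of brown fat and muscle, stood at 118 and 463 CPM against 0 and 74.8 in Neuron. Car3 stood at 189 and 219.9 CPM, Pck1 at 35.5 and 189.7 and Cfd, adipsin, at 65.1 and 326. Pck1, Ucp1, Cfd and Cox8b were at least 3-fold higher in library 2 of EC 2 than in library 1, and Neuron cells of library 2 also carried Car3 and Cfd, at 299 and 278 CPM. Adipocyte genes differed in level: Adipoq stood at 0 and 13.4 CPM with 8 UMIs in all, Plin1 at 17.8 and 13.4, and Lep was at 0. Cidea, also adipocyte-associated, stood higher, at 47.4 and 87.3 CPM. Cidec was among the list members of largest absolute fold against EC 1, EC 3 and the mean of the other populations. The low genes are thus not read as absence of adipocyte RNA. Summed over the 13 adipocyte genes, EC 2 stood at 474 and 1266 CPM, against 10.2 to 136 in library 1 and 160.3 to 939.9 in library 2 in the other populations. The library 2 sums of all other populations thus lay above all their library 1 sums. The adipocyte list had 6 of 8 higher and 0 lower (median log2 fold 2.63) against EC 1 and 6 of 8 higher and 0 lower (median log2 fold 4.96) against EC 3, and Car3, Pck1 and Ucp1 were called higher than in every other population. Those calls were kept in 7 of 11 alternatives for Car3, 5 of 11 alternatives for Pck1 and 7 of 11 alternatives for Ucp1. All 3 were lost when the cells with an adipocyte UMI were left out. Car3, Pck1 and Ucp1 were themselves among the genes used to leave out those cells. Their loss in that setting was thus largely fixed in advance and is not read as a result.

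In an alternative chosen after these values were seen, the 121 EC 2 cells with a UMI of 11 adipocyte genes in the first portion were left out, which kept 40 cells in library 1 and 63 in library 2. Car3, Pck1 and Ucp1 were among the 11 genes, and Cfd, Thrsp, Fabp4 and Lpl were not. The held-out log2 fold over EC 1 was then 4.75 for Ucp1, 5.54 for Thrsp, 6.83 for Fabp4 and 7.13 for Lpl, all still called. Cfd was no longer called (0.28, adjusted p = 0.79), nor were Acadm, Hadhb and Dbi. In thinned cells, a Ucp1 UMI was found in 21.0% of EC 2 cells and 0.371% of VSMC, and a Cfd UMI in 20.1% and 6.16%. The part of free adipocyte RNA in these levels was not tested beyond these values.

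**Figure D3:**
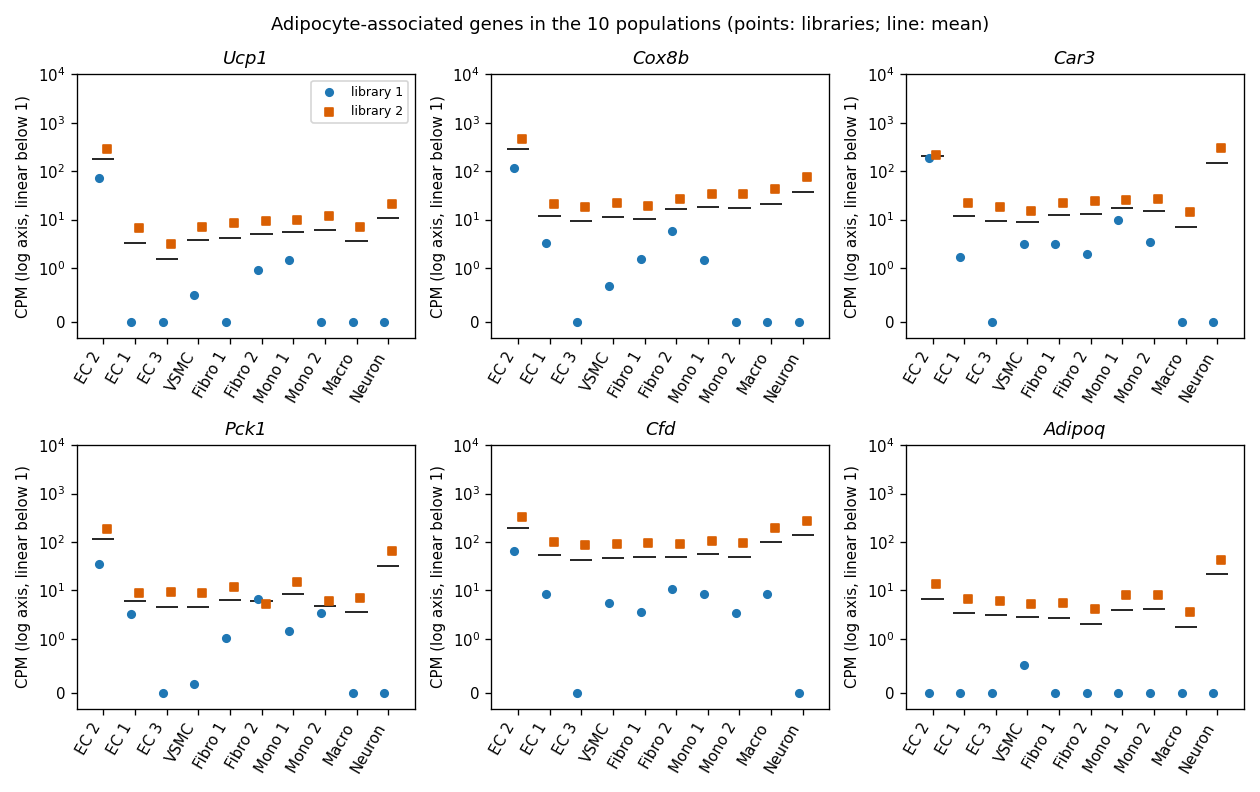
Levels of adipocyte-associated genes in the 10 populations, in CPM on an axis that is logarithmic above 1 and linear below, with a point for each library and a line at their mean. Ucp1 is highest in EC 2, at 71.0 and 287 CPM, while Adipoq is at 0 and 13.4.

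Of 14 capillary genes tested, EC 2 was higher than EC 1 in 13 and lower in 1, with a median log2 fold of 7.61 (7.43 with genes near 0 UMIs at their bound). Against EC 3 the list had 12 of 14 higher and 1 lower (median log2 fold 3.07), and 11 of its members were called higher than in every other population. The list includes the 5 markers less Cdh5, so its count is not independent of the choice of EC 2. Its summed level was 16917 and 21697 CPM in EC 2 against 169 to 3804 in library 1 and 169 to 4818 in library 2. Cd300lg, a glycoprotein of capillary endothelium, stood at 994 and 1404 CPM against 139.7 and 117 in EC 3. Aqp1, the water channel, stood at 3676 and 3542 CPM against 1126 and 1788 in EC 3, with log2 folds of 3.74 ± 0.24 and 1.31 ± 0.22. Btnl9 and Rbp7 were nearest in EC 3, where they reached 349 and 145 and 93.2 and 253 CPM against 402 and 556 and 515 and 964 in EC 2. Aplnr, the apelin receptor, stood at 130.2 and 101 CPM and was at least 75.2-fold higher than in EC 1 and at least 16.2-fold higher than in EC 3. The exception was Plvap, which forms the diaphragms of fenestrae and caveolae. It stood at 183 and 36.9 CPM in EC 2 against 761 and 1362 in EC 3 and 186 and 178 in EC 1, with log2 folds of -4.13 ± 0.35 (adjusted p = 7.24e-16) and -1.73 ± 0.41 (adjusted p = 0.000868). The fold over EC 1 was 0.18 in library 1 and -2.87 in library 2, so the libraries differ in direction. Mfsd2a, a lysolipid transporter of the blood-brain barrier, had no UMI in EC 2.

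The VEGF receptors Kdr and Flt1 were high in EC 2, and the ligand Vegfa was not. Kdr, the main VEGF receptor, stood at 438 and 371 CPM in EC 2, 380.4 and 222 in EC 3 and 6.59 and 2.01 in EC 1, with folds of 7.54 ± 0.48 (adjusted p = 6.77e-22) over EC 1 and 0.80 ± 0.27 (adjusted p = 0.0411) over EC 3. The fold over EC 3 rested on library 2: it was -0.08 in library 1 and 1.14 in library 2 with each library alone and was called in 2 of 12 alternatives of the processing. Flt1, the decoy receptor, stood at 899.7 and 1016 CPM against 116 and 287 in EC 3, and the co-receptor Nrp1 at 710.3 and 774 against 518 and 425 in EC 1. The orphan adhesion receptor Adgrl4 stood at 474 and 515 CPM against 77.6 and 58.6 in EC 3. Flt1 and Adgrl4 were called higher than in every other population, as were Nrp1, which kept this in 7 of 11 alternatives, and Kdr, which kept it in 2 of 11 alternatives. Flt4, the lymphatic VEGF receptor, was lower than in EC 3 (-3.12 ± 0.58) and Nrp2 was higher than in EC 1 (227-fold higher, 95% counting interval of 61.8 to 1889) and lower than in EC 3 (-0.77 ± 0.27, called in 6 of 12 alternatives). Vegfa held 8 UMIs in EC 2 and was called lower than in EC 1 (-2.25 ± 0.68). Tie1 was not called against EC 1 or EC 3, and Tek was lower than in EC 1 (-1.28 ± 0.21). The tip-cell gene Esm1 held 1 UMI. The cell cycle list had no call against EC 1 or EC 3 among 4 genes tested, with Mki67 at 0 UMIs in EC 2. Over all genes tested the shares were 8.78% higher and 9.99% lower against EC 1, and 5.29% and 5.32% against EC 3. At these shares 4 genes can hold no call, so the lack of calls is not a result about the cell cycle. The VEGF and angiogenesis list had 8 of 15 higher and 2 lower (median log2 fold 2.13) against EC 1 and 5 of 15 higher and 3 lower (median log2 fold 1.41) against EC 3.

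Genes of the arterial programme went both ways against EC 1, and some of those lower were nearly absent from EC 2. Against EC 1 the list had 6 of 18 higher and 8 lower (median log2 fold -0.56), and against EC 3 6 of 18 higher and 2 lower (median log2 fold 0.63). Sox17, a transcription factor of arterial identity, stood at 319.6 and 478 CPM in EC 2 against 169.8 and 235 in EC 1 and 0 and 15.4 in EC 3, with folds of 0.89 ± 0.20 over EC 1 and 4.46 ± 0.45 over EC 3. The Notch target Hey1 stood at 76.9 and 92.3 CPM and was higher by 2.93 ± 0.56 and 2.71 ± 0.76, the latter called in 9 of 12 alternatives. Sema3g, a semaphorin of arterial endothelium, stood at 17.8 and 121 CPM, and its library 1 value lay below those of EC 1 (33.0 and 45.5). The Notch ligand Dll4 was higher than in EC 1 (2.13 ± 0.52) and the chemokine Cxcl12 higher than in both EC 1 and EC 3 (3.57 ± 0.28 and 3.86 ± 0.38). In the other direction, Gkn3 stood at 23.7 and 10.1 CPM in EC 2 against 2176 and 1372 in EC 1, a log2 fold of -6.71 ± 0.29 (adjusted p = 2.69e-31). Bmx, a kinase of arterial endothelium, stood at 11.8 and 10.1 CPM against 669 and 481 (-5.41 ± 0.37). Gap junction protein Gja4 stood at 94.7 and 35.3 CPM against 481 and 466 (-3.33 ± 0.31), and Gja5 held 3 UMIs. Fbln5 and Stmn2 were also called lower than in EC 1, as were Jag1 (called in 9 of 12 alternatives) and Efnb2 (called in 7 of 12 alternatives). Fbln5 and Stmn2 were still present in EC 2, at 195 and 228 and at 88.8 and 97.4 CPM.

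Venous and lymphatic genes were compared with both other endothelial populations. Vwf, von Willebrand factor, stood at 47.4 and 40.3 CPM in EC 2, 1069.9 and 910.4 in EC 1 and 659.8 and 1362 in EC 3, with log2 folds of -5.68 ± 0.32 (adjusted p = 4.81e-25) over EC 1 and -5.60 ± 0.35 (adjusted p = 3.40e-22) over EC 3. The adhesion molecules Selp and Vcam1 stood at 0 and 11.8 and 53.3 and 35.3 CPM, against 150.0 and 137 and 1373 and 961 in EC 1. Icam1 was lower than in both (-3.25 ± 0.42 and -2.12 ± 0.59, the latter called in 8 of 11 alternatives). Nr2f2, the regulator of venous identity, took a middle place, higher than in EC 1 (3.71 ± 0.61) and lower than in EC 3 (-2.73 ± 0.30), as did Lrg1 (4.29 ± 0.86 and -5.19 ± 0.28). The venous list had 3 of 9 higher and 4 lower (median log2 fold -0.37) against EC 1 and 0 of 9 higher and 6 lower (median log2 fold -2.12) against EC 3. Against the mean of the other 9 populations it had 3 of 9 higher and 0 lower (median log2 fold -0.04). All 11 lymphatic genes were called lower than in EC 3, with a median of -7.46 (-5.61 with genes near 0 UMIs at their bound), and against EC 1 the list had 0 of 11 higher and 2 lower (median log2 fold -0.04). Prox1, the lymphatic master regulator, had 0 UMIs in EC 2 and was at least 42.2-fold lower than in EC 3, and Lyve1 stood at 0 and 10.1 CPM against 2709 and 1174. Ccl21a stood at 5.92 and 10.1 CPM against 24716 and 9604.

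General endothelial genes were present in EC 2, and against the mean of the other 9 populations 23 of 24 tested were called higher. Their balance differed from EC 1: the list had 7 of 24 higher and 10 lower (median log2 fold -0.34) against EC 1 and 5 of 24 higher and 5 lower (median log2 fold 0.06) against EC 3. The marker Cdh5 is a member, so the counts of this list are not independent of the choice of EC 2. Cdh5 was higher than in EC 1 by 1.36 ± 0.16 (adjusted p = 4.43e-11) and than in EC 3 by 1.54 ± 0.20 (adjusted p = 4.52e-09). Esam, a junctional adhesion protein, stood at 781 and 1024 CPM against 452 and 448 in EC 1, and the ETS factor Fli1 at 260.4 and 299 against 179 and 129 in EC 3. All 3 were called higher than in every other population, Fli1 in 8 of 11 alternatives. Pecam1, CD31, stood at 598 and 752 CPM in EC 2 against 3256 and 3471 in EC 1 and 1056 and 1353 in EC 3, with a log2 fold over EC 1 of -2.27 ± 0.20 (adjusted p = 3.26e-15), and was not called against EC 3 (-0.53 ± 0.22, adjusted p = 0.126). The tight junction protein Cldn5 was lower than in EC 1 (-0.70 ± 0.23) and EC 3 (-1.77 ± 0.23). Robo4 and Emcn were higher than in EC 1 (4.52 ± 0.65 and 1.82 ± 0.20) and were not called against EC 3. Sox18 differed between the libraries of EC 2, at 47.4 and 245 CPM.

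The caveolar coat was kept in EC 2, at levels close to those of EC 1. Cav1 stood at 1586 and 1660.3 CPM against 1210.1 and 1438 in EC 1 (0.21 ± 0.19, not called, adjusted p = 0.53), and Cav2 at 1131 and 1079.5 against 744 and 767 (0.54 ± 0.14, called in 8 of 12 alternatives). Ehd4, an endocytic ATPase, stood at 65.1 and 55.4 CPM against 1007 and 997 in EC 1 and was called lower than in both, with log2 folds of -4.40 ± 0.25 and, against EC 3, -3.44 ± 0.32. The list had 1 of 10 higher and 4 lower (median log2 fold 0.15) against EC 1 and 3 of 10 higher and 4 lower (median log2 fold -0.19) against EC 3. Genes of vascular tone and flow response had 3 of 17 higher and 9 lower (median log2 fold -1.05) against EC 1 and 0 of 17 higher and 6 lower (median log2 fold -0.65) against EC 3. Against the mean of the other 9 populations they had 10 of 17 higher and 0 lower (median log2 fold 1.62). Nos3, endothelial nitric oxide synthase, stood at 29.6 and 53.7 CPM against 201 and 245 in EC 1 (-2.25 ± 0.32), and Edn1, endothelin 1, at 11.8 and 57.1 against 251 and 261 (-2.82 ± 0.39). Ace, which converts angiotensin, stood at 29.6 and 25.2 CPM against 511 and 484 (-3.82 ± 0.32). The endothelin receptor Ednrb went the other way, at 272 and 238 CPM against 0 and 1.34 in EC 1 (258-fold higher, 95% counting interval of 70.6 to 2150.1), and was not called against EC 3 (0.52 ± 0.31). The flow-induced factors Klf2 and Klf4 were not called against EC 1 (-0.30 ± 0.20 and -0.18 ± 0.23) or EC 3 (-0.18 ± 0.21 and -0.07 ± 0.26).

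Basement membrane genes had 5 of 15 higher and 0 lower (median log2 fold 0.81) against EC 1 and 4 of 15 higher and 3 lower (median log2 fold 0.12) against EC 3. The collagen IV chains Col4a1 and Col4a2 stood at 331 and 406 and 189 and 349 CPM in EC 2 and were higher than in EC 1 by 1.47 ± 0.21 and 2.14 ± 0.27 and than in EC 3 by 1.76 ± 0.29 and 1.83 ± 0.35. Sparcl1, a matricellular protein, stood at 971 and 1039 CPM against 208 and 844 in Neuron and was called higher than in every other population, a call kept in 7 of 11 alternatives. Lama4 and Lamb1, laminin chains, were lower than in EC 3 (-1.73 ± 0.45, called in 9 of 12 alternatives, and -3.33 ± 0.93, called in 9 of 11 alternatives).

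Interferon-response genes were detected in EC 2 of these untreated mice. Rsad2, viperin, stood at 361 and 409.6 CPM in EC 2 against 24.3 and 8.00 in Mono 1, and its fold over EC 1 was 6.20 ± 0.44 (adjusted p = 1.51e-19). Cxcl9, a chemokine induced by interferon γ, stood at 195 and 232 CPM against 5.72 and 0 in Mono 1, and a UMI was found in 24.0% of thinned EC 2 cells and in 0 of the VSMC. Both genes were called higher than in every other population. So was Bst2, tetherin, at 509 and 771 CPM against 481 and 428 in EC 3, a call kept in 6 of 11 alternatives. The whole list, these genes included, had 8 of 20 higher and 2 lower (median log2 fold 0.59) against EC 1 and 6 of 20 higher and 0 lower (median log2 fold 0.95) against EC 3. Igtp and Ifi47, GTPases induced by interferon γ, were lower than in EC 1 (-1.70 ± 0.38 and -1.13 ± 0.40), where they stood higher in library 2 than in library 1 (67.6 and 231 for Igtp). Ifi47 was called in 6 of 12 alternatives, with log2 folds of 0.88 in library 1 and -1.39 in library 2. Isg15 was higher than in EC 1 (1.12 ± 0.37, called in 8 of 12 alternatives) and not called against EC 3 (1.41 ± 0.53, adjusted p = 0.079).

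Antigen presentation split by class. MHC class I genes had 0 of 9 higher and 0 lower (median log2 fold 0.28) against EC 1 and 8 of 9 higher and 0 lower (median log2 fold 1.04) against EC 3, and 9 of 9 were higher than the mean of the other 9 populations. B2m stood at 4428 and 5056 CPM in EC 2, 3529.6 and 4910.4 in EC 1 and 2189 and 2949.8 in EC 3. MHC class II genes were lower, with 0 of 7 higher and 6 lower (median log2 fold -3.65, or -3.38 with genes near 0 UMIs at their bound) against EC 1 and 0 of 7 higher and 5 lower (median log2 fold -2.79) against EC 3. Cd74, the invariant chain, stood at 101 and 77.2 CPM in EC 2 against 409 and 706 in EC 1 and 458 and 277 in EC 3. The libraries of EC 2 lay below those of both, and H2-Aa had log2 folds of -3.66 ± 0.45 and -3.55 ± 0.51. In Mono 2 Cd74 stood at 36806 and 34344 CPM, and the part of free RNA from such cells in the endothelial values was not tested.

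Immediate early and heat shock genes, which respond quickly to stimuli and stress, had 7 of 17 higher and 0 lower (median log2 fold 0.68) against EC 1 and 4 of 17 higher and 0 lower (median log2 fold 0.70) against EC 3. Fos stood at 609.7 and 708 CPM in EC 2 against 157 and 202 in EC 1 (1.56 ± 0.27), and Btg2 at 716 and 578 against 229 and 103 (2.02 ± 0.30). The summed list stood at 6919.5 and 6311 CPM in EC 2 and at 3912 to 9003 in library 1 and 3213 to 12774 in library 2 elsewhere, so EC 2 lay within the range of the other populations. Few cells carried much of it: the 23 cells richest in these UMIs held 46.6% of them. The largest sub-cluster of EC 2, 151 cells described below, stood at 3624 CPM. Clustering used all UMIs, these genes included, and set 24 cells apart at 23262 CPM. The value of the largest sub-cluster is therefore not compared with EC 1, which was not divided in this way.

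**Figure D4:**
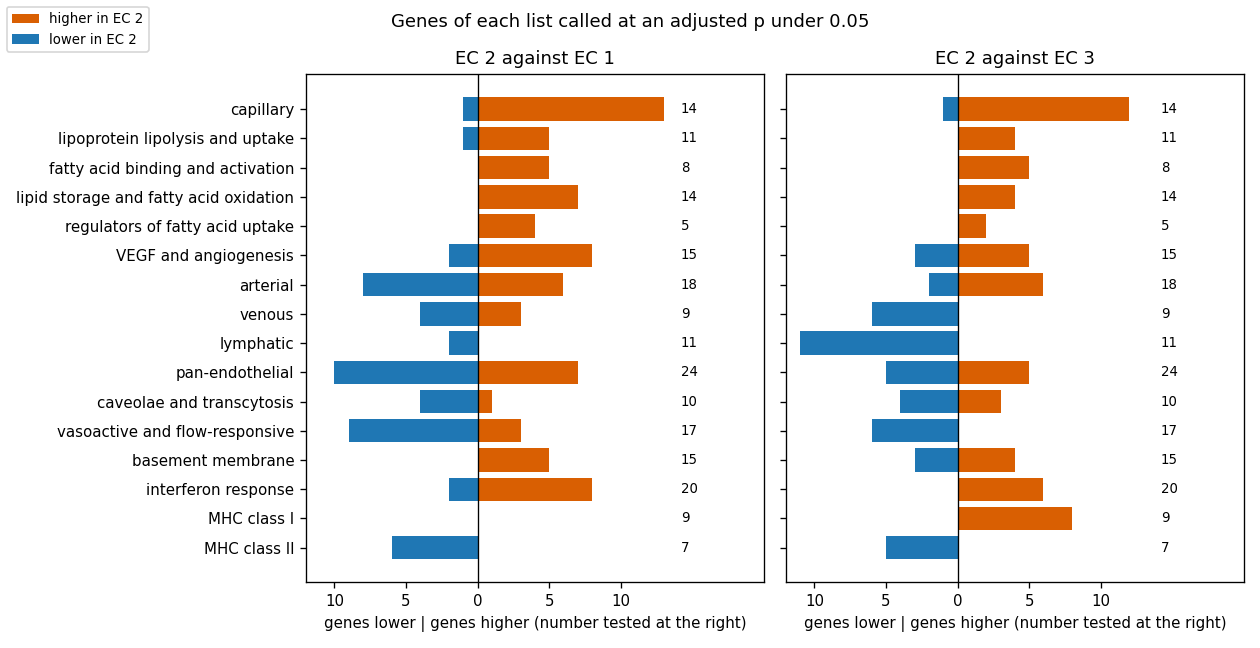
Numbers of genes of each list called higher (to the right) or lower (to the left) in EC 2 than in EC 1 and in EC 3, with the number tested at the right. Capillary and fatty acid lists lie to the right in both panels, and the lymphatic list is lower against EC 3 in 11 of 11.

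Among the genes with the largest folds over EC 1 were Pparg, Car4, Aqp7 and Aplnr, given above, and Cxcl9 and Slc26a10. Ablim3, an actin-binding LIM protein, stood at 243 and 282 CPM in EC 2 and was at least 192-fold higher than in EC 1, which held none of its UMIs. Slc28a2, a nucleoside transporter, stood at 142 and 149 CPM and was at least 104-fold higher. Those furthest below EC 1 were nearly absent from EC 2. Ptprj, a receptor tyrosine phosphatase, stood at 0 and 1.68 CPM in EC 2 against 259 and 328 in EC 1. Lsr, a receptor for triglyceride-rich lipoproteins and a junction protein, stood at 0 and 3.36 CPM against 179.7 and 183. Kcnn4, a calcium-activated potassium channel, and Nt5e, the ectonucleotidase CD73, stood at 0 and 1.68 and 0 and 1.68 CPM against 62.6 and 153 and 109 and 103. The prostaglandin transporter Slco2a1 stood at 0 and 3.36 CPM in EC 2, 181 and 139 in EC 1 and 202 and 361 in EC 3. All of these libraries of EC 2 lay below all libraries of EC 1.

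Against EC 3, the genes with the largest folds in EC 2 were again Gm12002, Cxcl9, Slc26a10 and Tmem182, with Lnx1, Art3, Cox7a1, Abcb1b, Sema3g and Sema7a. Abcb1b, a drug efflux pump, stood at 166 and 106 CPM and was at least 18.0-fold higher, and Lnx1, a ubiquitin ligase, stood at 308 and 185 CPM against 7.76 and 0. In the other direction Ptn, pleiotrophin, had 0 UMIs in EC 2 and was at least 178-fold lower than in EC 3. Mmrn1 and Reln, both lymphatic, held 1 UMI each in EC 2. Lcn2, a lipocalin, stood at 0 and 3.36 CPM in EC 2 against 668 and 395 in EC 3.

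In the comparisons outside the endothelium, EC 2 was called higher in 16.0% and lower in 15.6% of genes against VSMC, 15.7% and 16.5% against Fibro 1, 15.1% and 15.6% against Fibro 2, 14.8% and 15.3% against Mono 1, 14.9% and 13.9% against Mono 2, and 12.5% and 9.9% against Macro. Against Neuron, which holds 44 cells, the shares were 7.11% and 3.57%. At least 12 of 14 capillary genes and at least 20 of 24 general endothelial genes were higher in EC 2 in each of these 7 comparisons. All 20 interferon genes tested were higher than in VSMC, 18 than in Fibro 1, 16 than in Fibro 2, 11 than in Mono 1, and 5 than in Neuron. EC 2 was lower than VSMC in 7 of 7 smooth muscle genes, lower than each fibroblast population in 8 of 8 fibroblast genes, and lower than Mono 1 and Mono 2 in 8 of 8 macrophage genes. Not all lipid genes separated EC 2 from these cells. Apoe was higher in Mono 1, at 27169 and 18562 CPM, Lpl reached 924 and 1235 CPM in Mono 2, and the lipoprotein list was higher in EC 2 in 5 and lower in 3 of 11 genes against Fibro 1 and Mono 1. Dbi was highest in Neuron at 3439.7 and 3930.5 CPM.

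Markers of other cell types in EC 2 were mostly low, with the adipocyte genes given above as an exception. Most pericyte and erythroid UMIs lay in few cells, but Rgs5 was called higher than in EC 1 also without those cells, as given below. B cell genes were at 0 UMIs in EC 2, as were the 3 cardiomyocyte genes in the table, and Schwann cell and mesothelial genes held 4 and 1 UMIs. The macrophage list stood at 178 and 139 CPM, within 162 to 39192 in library 1 and 125 to 35962 in library 2, T and NK cell genes at 35.5 and 5.04, platelet genes at 29.6 and 45.3 and fibroblast genes at 1835 and 1378 CPM against 496 to 35068 in library 1 and 1082 to 39559.9 in library 2. None of the 8 macrophage, 5 T and NK cell, 3 B cell, 3 Schwann cell or 1 platelet genes tested was called against EC 1 or EC 3, and the fibroblast list had 0 and 2 genes higher of 8. Of all genes tested, 8.78% were higher and 9.99% lower than in EC 1, and 5.29% and 5.32% than in EC 3. At these shares lists this short can hold no call, so the lack of calls is not a result about them. Pericyte genes had 6 of 10 higher and 0 lower (median log2 fold 3.90) against EC 1 and 4 of 10 higher and 0 lower (median log2 fold 2.36, or 2.22 with genes near 0 UMIs at their bound) against EC 3, with a summed level of 1379 and 937 CPM against 91.7 to 1749.8 in library 1 and 81.6 to 3749 in library 2. Rgs5, a mural cell gene, stood at 675 and 618 CPM in EC 2 and 52.8 and 38.8 in EC 1, and the 23 cells richest in pericyte UMIs, 10% of EC 2, held 83.4% of them. Smooth muscle genes stood at 3611 and 1121 CPM, and 3 of 7 were called higher than in EC 1 and 1 than in EC 3. At least 2 smooth muscle UMIs were found in 77.3% of EC 2 cells, and the 23 cells richest in them held 54.0%. Erythroid genes stood at 3652 and 23392 CPM, and 2 cells with 7703 and 5086 erythroid UMIs carried most of them, the next cell holding 38. Erythroid genes had 2 of 5 higher and 0 lower (median log2 fold 0.77) against EC 1 and 5 of 5 higher and 0 lower (median log2 fold 3.38) against EC 3.

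In an alternative chosen after the data were seen, 17 cells were left out, the pericyte-rich cells described next and the 2 cells rich in haemoglobin. Rgs5 was still called higher than in EC 1 (2.95), while Acta2 and Tagln were no longer called. Over all alternatives, Acta2 was called in 4 of 12 alternatives and Tagln was called in 5 of 12 alternatives against EC 1. Hbb-bs, a β-globin, went from 0.65 ± 0.33 over EC 1, not called, to -1.57, called lower, and the number of erythroid genes higher than in EC 3 went from 5 to 0. The number of pericyte genes higher than in EC 1 went from 6 to 1. The genes higher than in every other population numbered 134, of which 130 were among the 142.

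EC 2 was itself divided by clustering its 229 cells on all UMIs, which gave 4 sub-clusters described here without a test. The first held 151 cells, 44.6% of EC 2 in library 1 and 72.8% in library 2, and carried the highest capillary sum, 24449 CPM. In it Car4 stood at 1248 CPM against 455 in the rest of EC 2, Ucp1 at 348 CPM against 94.7 in the rest of EC 2 and Cxcl9 at 318 CPM against 97.8 in the rest of EC 2. Both cells rich in haemoglobin lay here. The second held 39 cells, 16 and 23 by library, and had the highest arterial sum, 6029.6 CPM against 2789.5 in the first. It was led by Plvap, at 292 CPM against 17.7 in the rest of EC 2, Stmn2, at 376 CPM against 30.6 in the rest of EC 2, Fbln5, at 661 CPM against 119 in the rest of EC 2, and Hey1, at 285 CPM against 43.5 in the rest of EC 2. These cells held 42.0 of the Plvap UMIs of EC 2 and the others 11.0. The third held 24 cells, 9 and 15 by library, and was led by immediate early genes, with Junb at 5939 CPM against 393 in the rest of EC 2, Fos at 3341 CPM against 373 in the rest of EC 2 and Socs3 at 804 CPM against 51.2 in the rest of EC 2. The fourth held 15 cells, 6 and 9 by library, with a median of 6208 UMIs per cell and 7 of the 8 EC 2 doublets. It was led by genes of mural cells and fibroblasts, with Rgs5 at 2640.3 CPM against 319 in the rest of EC 2, Pdgfrb at 351 CPM against 3.02 in the rest of EC 2 and Kcnj8 at 370.2 CPM against 12.1 in the rest of EC 2.

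**Figure D5:**
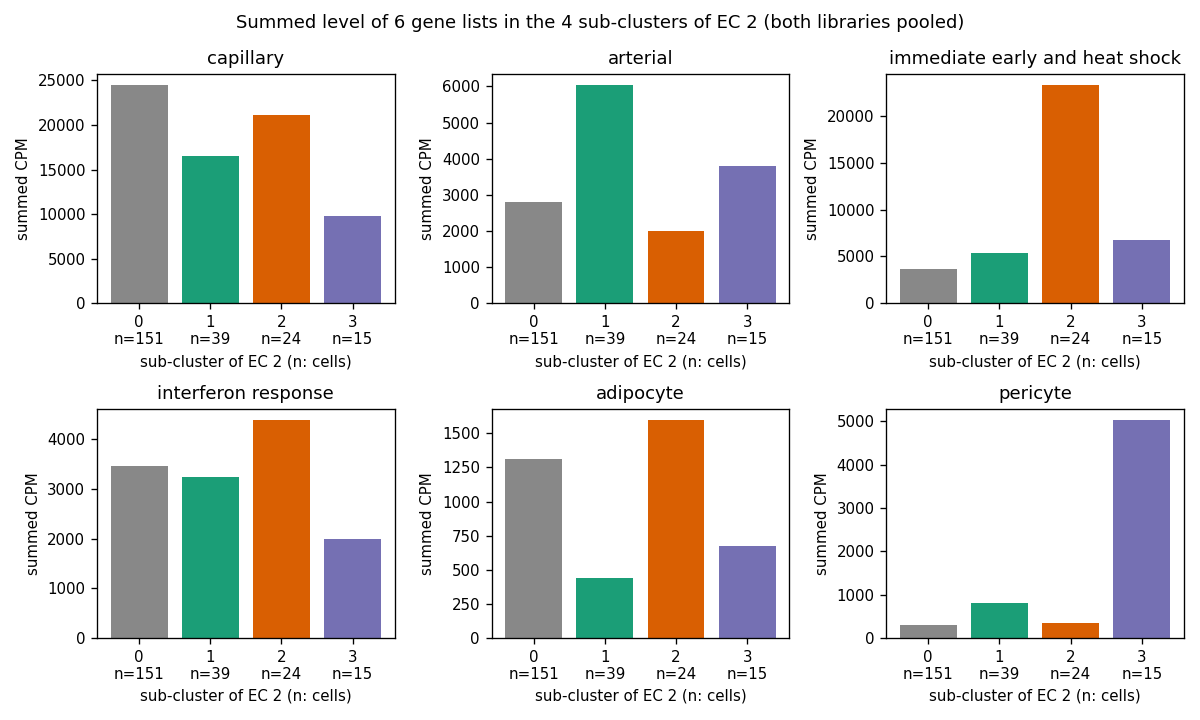
Summed levels of 6 gene lists, in CPM from 0, in the first to the fourth sub-cluster of EC 2 (numbered 0 to 3), with the number of cells under each bar. The capillary sum falls from 24449 CPM in the first to 9782 in the fourth, the immediate early and heat shock sum reaches 23262 in the third and the pericyte sum 5027 in the fourth.

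The libraries of EC 2 differed in some of these genes, which with 1 value each has no test. Of 267 described genes with at least 50 UMIs in EC 2, 17 were over 2-fold higher in library 2 and 5 in library 1. The share over all genes is not given here, so these counts are not read as a trait of the described genes. Higher in library 2 were Sema3g, with 17.8 CPM in library 1 and 121 in library 2, Pck1, with 35.5 CPM in library 1 and 189.7 in library 2, and Sox18, with 47.4 CPM in library 1 and 245 in library 2. Library 1 held only 3, 6 and 8 UMIs of these genes, so their counting error is large. The lipid genes Pnpla2, Fabp3, Hadha and Acadvl were also among the 17, at 2.58, 2.79, 2.69 and 2.62-fold, as were Ucp1, Cfd and Cox8b. Library 1 held 38 UMIs of Pnpla2, and 6, 6 and 9 of Fabp3, Hadha and Acadvl. Hba-a2 stood at 474 CPM in library 1 and 5255 in library 2, where both haemoglobin-rich cells add to it. Higher in library 1 were Tagln, with 1184 CPM in library 1 and 215 in library 2, Plvap, with 183 CPM in library 1 and 36.9 in library 2, and Dcn, with 899.7 CPM in library 1 and 401 in library 2. The 5 markers differed less, from 1.16 for Cdh5 to 1.51 for Gpihbp1 as library 2 over library 1.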

How the data were processed

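Single-cell 3′ RNA libraries (10x v2) of 2 mouse aorta samples were counted by the authors, with Cell Ranger 2.1 named in the submitters' processing notes. The genome build, annotation and cell filters are not given in the sources used here. The deposited table holds raw counts, whole UMIs per gene, for 16971 genes in 5451 cells with 1322 to 14968 UMIs each, and the deposited annotation names each cell's population. Libraries were told apart by the barcode suffix and numbered by it, since which one is WT1 and which WT3 is not stated.

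Levels are CPM of UMIs summed per library and population. For tests, UMIs were divided at random (binomial, probability 0.5, seed 1), cells were clustered on 1 portion (scanpy 1.11.5, leidenalg 0.10.2, 2000 variable genes, 30 components, 15 neighbours, resolution 1.0, 18 clusters), and 97.34% of cells kept the authors' name. The portions of a cell share its RNA, so some dependence remains. The other portion was tested with edgeR 4.0.16 (TMM, filterByExpr, quasi-likelihood, a term for the population and one for the library, with 9 degrees of freedom left), with Benjamini-Hochberg adjustment over the 7917 genes tested. SEs are the absolute log2 fold over the root of F. Populations of the same library come from the same sample, so the library term is the replicate block. On counts simulated from these sums, 37% of 2-fold and 82% of 4-fold changes (100 each) were called against EC 1, 38% and 84% against EC 3, and 5 and 2 of 7717 unchanged genes. Doublets were marked with Scrublet and kept, 84 of 5451 cells. Intervals and floors cover counting error only.

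The members and the 30 gene lists were chosen with earlier results of these data known. Genes named are the 5 markers, for each of the comparisons with the mean of the other 9, EC 1 and EC 3 the 10 in each direction with the largest fold among called genes with 50 UMIs or more whose direction was the same in both libraries, the 15 with the largest smallest fold, as many as 4 genes per list by absolute fold in a comparison, and a set of known endothelial and other cell type genes. Of the genes so picked, those that add values are described. Alternatives were DESeq2 1.42.0, RLE size factors, no filter, no replicate block, a second split, the portions swapped, the authors' names with all UMIs, doublets left out, thinned cells, only the populations compared, and each library alone (folds only). A member of the lipoprotein list is not reported here.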

Additional observations from a re-analysis of the deposited data

How the results depend on the processing

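With 2 libraries and 1 group, folds of a single library have no test, and DESeq2, which called fewer genes, gave the lowest number higher than in every other population (74, all among the 142), against 86 without the 121 cells holding an adipocyte UMI (adipocyte-UMI cells) and 175 with all UMIs. The genes lower than in every other numbered 6 with all UMIs, 4 without doublets, 3 with the portions swapped, thinned cells or the 17 cells rich in pericyte or haemoglobin transcripts (mixed cells) left out, and 2 with DESeq2 or without adipocyte-UMI cells. Against the mean of the other 9, 744 genes were higher without adipocyte-UMI cells and 704 lower with all UMIs. Against EC 1, 415 were higher without adipocyte-UMI cells. Against EC 3, 252 were higher and 257 lower in a fit of those populations alone, 260 higher without adipocyte-UMI cells and 647 lower with all UMIs. The causes were not tested.

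Of 139 calls of single genes, 20 were lost with DESeq2, 19 without adipocyte-UMI cells, 12 without the replicate block, 11 with thinned cells and at most 9 under each other alternative, counting changes of sign. The fold over EC 1 changed sign for Acta2 (-0.25 without doublets, -0.19 thinned), Tagln (-0.42 without doublets, -0.31 thinned, -0.17 without the mixed cells), Dbi (-0.16 without adipocyte-UMI cells) and Hbb-bs (-1.57 without the mixed cells, -1.65 without adipocyte-UMI cells). Each library alone gave 0.88 in library 1 and -1.39 in library 2 for Ifi47 and 0.18 in library 1 and -2.87 in library 2 for Plvap against EC 1, and -0.077 in library 1 and 1.14 in library 2 for Kdr against EC 3. Without thinning, the shares of cells with a UMI were 96.1% for Cdh5, 100% for Gpihbp1 and Cd36, 99.1% for Rgcc and 81.2% for Car4.

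Among list counts of at least 5, those below moved by over 1.5 times, starting with the numbers higher than in EC 3. DESeq2 gave 2 for fatty acid binding, 3 for general endothelial genes (also 3 lower), 2 for interferon and 4 for MHC class I. The fit of EC 2 and EC 3 alone gave 3, 2, 3 and 5 for these lists, 2 for adipocyte and 3 for erythroid genes. Thinned cells gave 3 for arterial, general endothelial and adipocyte genes, 10 for interferon, and 3 venous genes lower. Without the replicate block the general endothelial list had 2 higher and 3 lower than EC 3, and the immediate early list 3 higher than EC 1. With no filter 3 general endothelial genes were lower than in EC 3, and the second split gave 3 adipocyte genes higher. Without adipocyte-UMI cells the counts over EC 3 were 2 for fatty acid binding, general endothelial and interferon genes, 3 for adipocyte and 0 for erythroid genes, and those over EC 1 were 4 for lipid storage and immediate early genes, 5 for interferon and 3 for adipocyte genes. Over the mean of the other 9 the same setting gave 4 for lipid storage, 3 for adipocyte and 0 for erythroid genes. That setting left out cells by genes of the adipocyte list, so the drop in this list was partly fixed in advance. Swapping the portions gave 9 lipoprotein genes higher than EC 1. Pericyte genes numbered 3 over the mean and 2 over EC 1 in thinned cells and 1 in each without the mixed cells, which also left 0 erythroid genes over the mean and over EC 3. Thinned cells gave 5 basement membrane genes over the mean. Macrophage genes lower than the mean numbered 2 with DESeq2 or the portions swapped and 3 with the second split or without adipocyte-UMI cells.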
